A study of Mus musculus with 5 samples.

Results

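Trefoil factors, mucins and other genes of the gastric mucosa were followed in mouse pancreatic cancer cells sorted by autophagy flux. The set was 10 genes, namely Tff1, Tff2, Tff3, Muc1, Muc5ac, Muc6, Anxa10, Ctse, Agr2 and Gkn1, taken as the rows of the deposited table with these symbols, out of 52459 rows. All 10 were found once. The cells had the HY15549 line as background, on a C57BL/6 strain background, and both sorted groups carried the GFP-LC3-RFP autophagy flux reporter. They grew as organoids in Matrigel in DMEM with fetal bovine serum, were dissociated, and were sorted by their GFP/RFP ratio into an autophagy-high group (AThi, 2 libraries) and an autophagy-low group (ATlo, 3 libraries). No unsorted cells and no cells without the reporter are among these 5 libraries. The series calls its samples biological replicates without saying whether they were separate cultures, so the p-values below measure the spread between these libraries.

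Trefoil factors are small secreted peptides, folded into loops held by disulfide bonds, that lie in the mucus layer with the mucins and take part in the repair of the lining. In the stomach, Tff1, Muc5ac and the gastrokines are made mainly by surface pit cells, Tff2 and Muc6 by neck and gland cells, and Tff3 is best known from intestinal goblet cells. The normal pancreatic duct makes little of Tff1, Muc5ac and the gastrokines. Gastric-type genes of this kind appear in early pancreatic neoplasia and in the subtype of pancreatic cancer called classical.

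The values are FPKM, fragments scaled by transcript length and by sequencing depth, which can be compared between genes within a library. Read from the spacing of low values, the libraries had implied depths of 27460000 to 45050000 reads. Tff1 had the highest value of all 52459 rows in each ATlo library and ranked 9th and 8th in AThi replicates 1 and 2. In ATlo it alone made up 2.26% to 2.53% of the summed FPKM of a library, against 0.737% and 1.005% in AThi. Among the markers of duct and epithelium, Spp1 was at 3673 to 4437 FPKM and Krt19 at 1395 to 1842 FPKM, while Epcam was at 1.51 to 3.57 FPKM and Cldn4 at 0 to 0.15 FPKM. Defining markers of other cell types were at or near 0: 7 of 13 acinar, 6 of 8 endocrine, 3 of 10 immune, 4 of 8 fibroblast and 2 of 6 endothelial genes were listed at 0 in every library. Of 8 genes of gastric parietal, chief and enteroendocrine cells, Gif, Lipf, Atp4b and Gast were listed at 0 in every library and Chga and Ghrl were at 0 to 0.08 FPKM. Atp4a, a proton pump subunit gene, was at 1.74 and 1.66 FPKM in AThi and 1.79 to 2.57 FPKM in ATlo, and Pgc was at 2.69 to 12.8 FPKM over the 5 libraries. The acinar sum was 10.98 to 11.99 FPKM in AThi and 11.76 to 12.97 FPKM in ATlo, and nearly all of it was Cela1. The immune sum was 8.79 and 14.9 FPKM in AThi and 4.37 to 4.67 FPKM in ATlo, nearly all of it Cd68, which encodes a lysosomal membrane protein.

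The order of levels was led by Tff1 in both groups, followed by Muc1 and Ctse. In ATlo the means ran from 7085 FPKM for Tff1 through 554 FPKM for Muc1, 439 FPKM for Ctse, 233 FPKM for Anxa10 and 94.0 FPKM for Tff2 to 85.2 FPKM for Gkn1, 68.6 FPKM for Tff3 and 65.6 FPKM for Muc5ac. The last 4 of these overlapped with their neighbours in the order. In AThi, Tff2 stood next to Ctse and overlapped with it, and Gkn1, Tff3 and Muc5ac overlapped in turn. Agr2 and Muc6 were far below the rest in both groups.

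**Figure D1:**
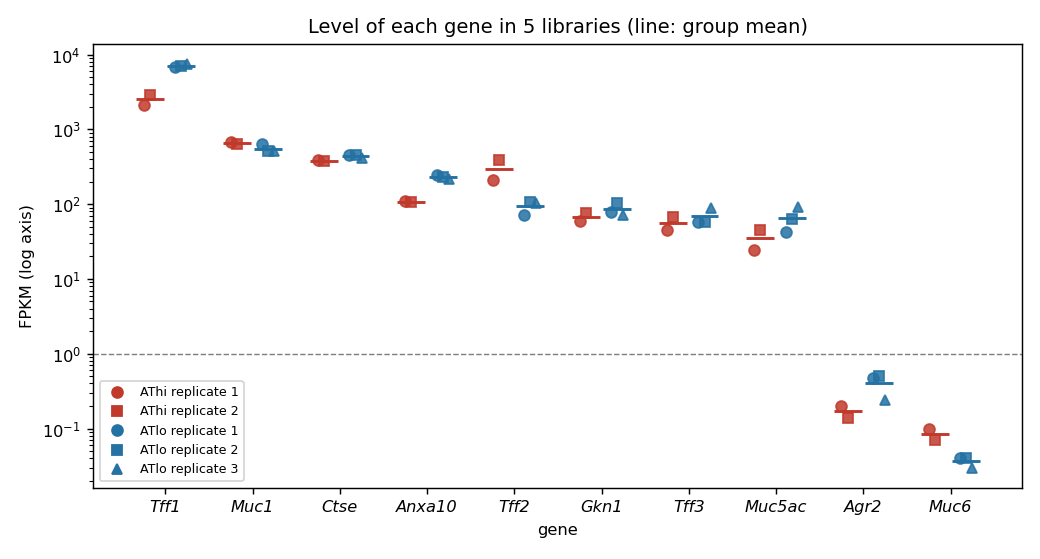
FPKM (log axis) of the 10 genes in each of the 5 libraries, with points for libraries, lines for group means and a dashed line at 1 FPKM, the minimum mean for testing. The AThi points of Tff1, Anxa10, Ctse and Agr2 lie below all ATlo points, and those of Tff2 and Muc6 lie above them. Agr2 and Muc6 lie below 1 FPKM and were not tested.

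The test was made with limma, for genes whose mean across libraries reached 1 FPKM, on log2(FPKM + 0.5), with Benjamini-Hochberg adjustment over all 11397 genes tested and a threshold of 0.05. Of the 10 genes, 8 passed the filter, and of these 1 was higher in AThi (Tff2), 2 were lower (Tff1 and Anxa10) and 5 did not pass. That is 37.5% of the 8, against 51.6% of all genes tested. Over all genes, 22.2% were called higher and 29.4% lower. The library values of the groups did not overlap in 4 of the 8, or 50%, against 70.3% of all genes tested. In this fit the 8 were therefore not called more often than other genes. What set Tff1, Tff2 and Anxa10 apart was the size of the change. With a replicate block, given at the end, 6 of the 8 were called, beside 5909 of 11397 genes. A call with a log2 fold change of at least 1 was made for 2.38% of genes tested in the upward direction, as for Tff2, and one of -1 or less for 4.17% in the downward direction, as for Tff1 and Anxa10. The median log2 fold change was -0.30 over the 8 and -0.03 over all genes tested. Fold changes are AThi minus ATlo. In sorted bulk cells, fewer cells that make a transcript and less of it per cell cannot be told apart.

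**Figure D2:**
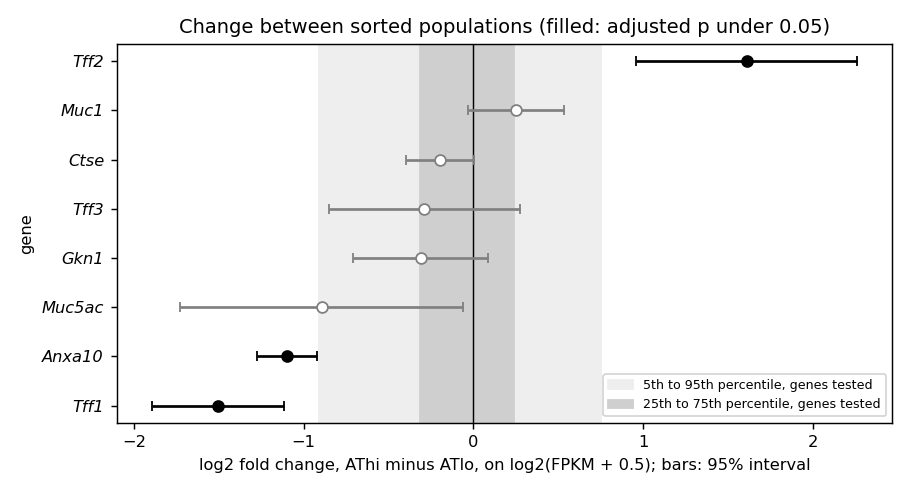
Log2 fold change, AThi minus ATlo, of the 8 genes tested, with 95% intervals; filled points passed an adjusted p of 0.05, and the grey bands give the 25th to 75th and the 5th to 95th percentile of all genes tested (-0.91 to 0.75 for the wider band). Tff1, Anxa10 and Tff2 lie outside the wider band.

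The 3 trefoil genes behaved differently from each other. Tff1 fell in AThi, Tff2 rose, and Tff3 did not pass the test. They lie in a row on the minus strand of chromosome 17 of GRCm38, Tff3 at 31125306 to 31129646, Tff2 at 31141049 to 31144282 and Tff1 at 31161395 to 31165277, with 11.4 kb between Tff3 and Tff2 and 17.1 kb between Tff2 and Tff1. Because paralogs can share reads, the coding sequences of the 2 genes that moved in opposite directions are given here, from the GENCODE M21 transcripts, whole for Tff1 (without the stop codon) and as the first 300 bases for Tff2, with the longest run of bases that they have in common in capitals.
Tff1: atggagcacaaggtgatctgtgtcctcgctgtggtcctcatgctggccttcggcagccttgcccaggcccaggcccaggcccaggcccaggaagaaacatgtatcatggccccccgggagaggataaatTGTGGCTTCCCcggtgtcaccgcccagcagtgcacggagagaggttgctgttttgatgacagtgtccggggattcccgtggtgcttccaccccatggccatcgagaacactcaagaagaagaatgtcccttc
Tff2: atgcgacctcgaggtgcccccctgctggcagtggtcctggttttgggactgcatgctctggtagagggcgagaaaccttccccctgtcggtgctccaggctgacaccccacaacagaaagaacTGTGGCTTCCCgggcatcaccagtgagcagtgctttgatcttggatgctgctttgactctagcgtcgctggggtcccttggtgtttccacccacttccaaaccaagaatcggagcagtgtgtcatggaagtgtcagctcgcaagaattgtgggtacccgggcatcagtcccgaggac
The coding sequences are 261 and 387 bases long, and the shared run is 11 bases. Over 244 aligned bases, 62.7% were identical. Over the whole transcripts, the longest shared run was 11 bases for Tff1 and Tff2, 12 bases for Tff1 and Tff3 and 14 bases for Tff2 and Tff3.

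Tff1, the peptide of gastric pit cells, was at 2145 and 2897 FPKM in AThi replicates 1 and 2 and at 6813, 6994 and 7447 FPKM in ATlo replicates 1 to 3. Every ATlo library was above every AThi library, and the ATlo values lay close together. The AThi mean was 2521 ± 532 FPKM (SD, n = 2), against 7085 ± 327 FPKM (SD, n = 3) in ATlo, or 2.81-fold lower in AThi, with a log2 fold change of -1.51 ± 0.16 (SE) and a limma adjusted p of 0.000476. Of 377 genes averaging 100 FPKM or more, a limit chosen after the values were seen, 1, Gm6054, fell by more on the log2 scale. With no filter on low values the Tff1 call was lost, at an adjusted p of 0.169 by limma. The log2 fold change was unchanged at -1.51, with an SE of 0.63 in place of 0.16.

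Tff2, the spasmolytic peptide of neck cells, was at 209 and 386 FPKM in AThi and at 71.8, 106 and 104 FPKM in ATlo. The groups did not overlap, and AThi replicate 2 was well above AThi replicate 1. The means were 297 ± 125 FPKM (SD, n = 2) and 94.0 ± 19.3 FPKM (SD, n = 3), or 3.16-fold higher in AThi, with a log2 fold change of 1.61 ± 0.27 (SE) and a limma adjusted p of 0.0030. With any 1 library left out the call held, with log2 fold changes between 1.17 and 2.05. The lower end of that range came without AThi replicate 2.

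Tff3, the intestinal trefoil factor, was at 44.6 and 67.1 FPKM in AThi and at 57.2, 58.5 and 90.0 FPKM in ATlo. The groups overlapped, and ATlo replicate 3 was the highest. The log2 fold change was -0.29 with a 95% interval of -0.85 to 0.27 and a limma adjusted p of 0.340. The interval leaves room for a fall as well as for a small rise.

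Set against each other within a library, the trefoil genes changed their proportions. The ratio of Tff2 to Tff1 was 0.0972 and 0.133 in AThi and 0.0105, 0.0152 and 0.0140 in ATlo. Put the other way, there was 94.9, 65.8 and 71.7 times as much Tff1 as Tff2 per length in ATlo replicates 1 to 3, and 10.3 and 7.51 times as much in AThi. The ratio of Tff3 to Tff1 was 0.0208 and 0.0232 in AThi and 0.0084 to 0.0121 in ATlo. These ratios do not depend on the scaling of a library, were chosen after the values were seen, and were not tested.

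Around the trefoil genes other protein-coding genes were low. Abcg1, on the side of Tff3, was at 0.01 to 0.04 FPKM. Tmprss3, a serine protease gene 14.0 kb from Tff1, was at 0.30 and 0.42 FPKM in AThi and 0.63, 0.80 and 0.77 FPKM in ATlo, under the filter, and Ubash3a was at 0 to 0.01 FPKM. High levels within 50 kb of Tff1 were thus found in the 3 trefoil genes, and not in Tmprss3, Ubash3a or Abcg1.

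**Figure D3:**
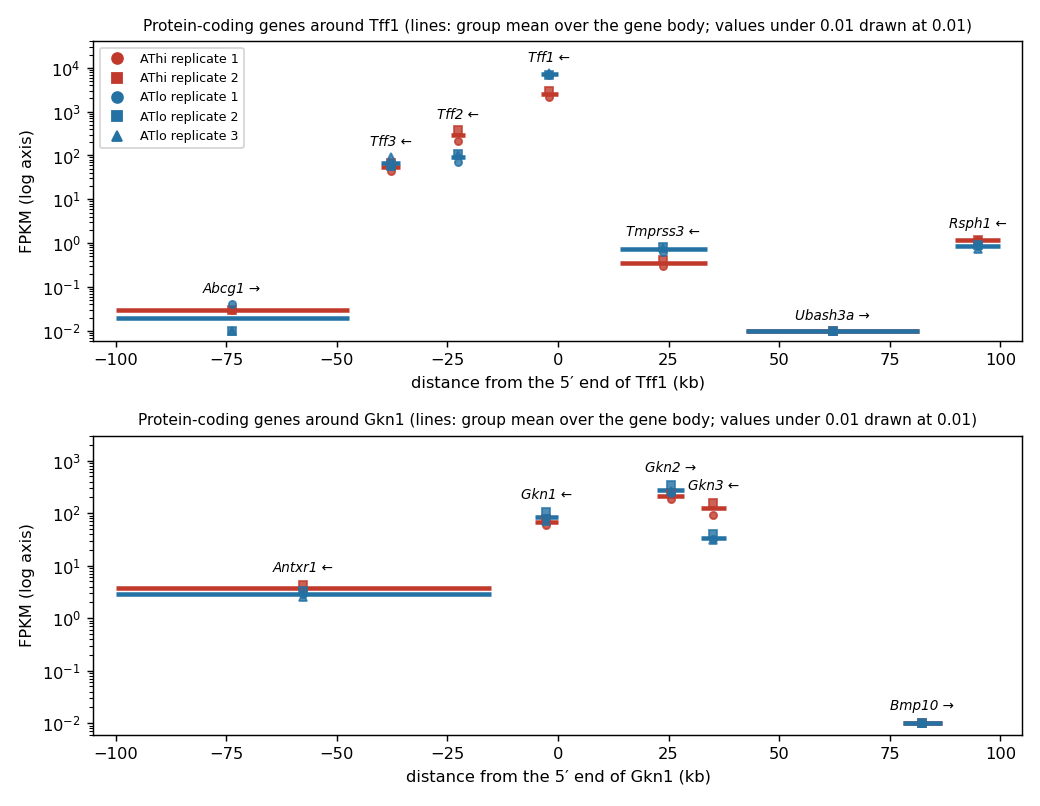
FPKM (log axis) of protein-coding genes within 100 kb of the 5′ end of Tff1 (upper panel) and of Gkn1 (lower panel), by distance in kb, with lines for group means drawn over each gene body, points for libraries and arrows for strand. Tff1 and Tff2 change in opposite directions 17.1 kb apart, and Gkn3 is higher in AThi while Gkn1 and Gkn2 overlap between groups.

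Gkn1 encodes gastrokine 1, a secreted protein of the gastric surface epithelium. It lies on chromosome 6 (87345650 to 87350942, minus strand) and was at 60.5 and 76.0 FPKM in AThi and 79.3, 104 and 72.0 FPKM in ATlo. The groups overlapped, with a log2 fold change of -0.31, a 95% interval of -0.71 to 0.09 and a limma adjusted p of 0.161. Its relatives Gkn2 and Gkn3 follow on the chromosome, 22.4 and 32.3 kb away. Gkn2, also of surface cells, was at 184 and 244 FPKM in AThi and 238, 338 and 259 FPKM in ATlo, with a log2 fold change of -0.38 ± 0.18 (SE) and a limma adjusted p of 0.113. Gkn3, which in the mouse stomach marks neck cells, was at 93.7 and 155 FPKM in AThi and at 32.8, 39.9 and 30.4 FPKM in ATlo. All AThi values of Gkn3 were above all ATlo values, with a log2 fold change of 1.81 ± 0.21 (SE) and a limma adjusted p of 0.000637. The ratio of Gkn2 to Gkn1 stayed between 3.00 and 3.60 in all 5 libraries, whereas that of Gkn3 to Gkn2 was 0.510 and 0.636 in AThi and 0.117 to 0.138 in ATlo. The 3 gastrokine transcripts share no run longer than 10 bases.

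**Figure D4:**
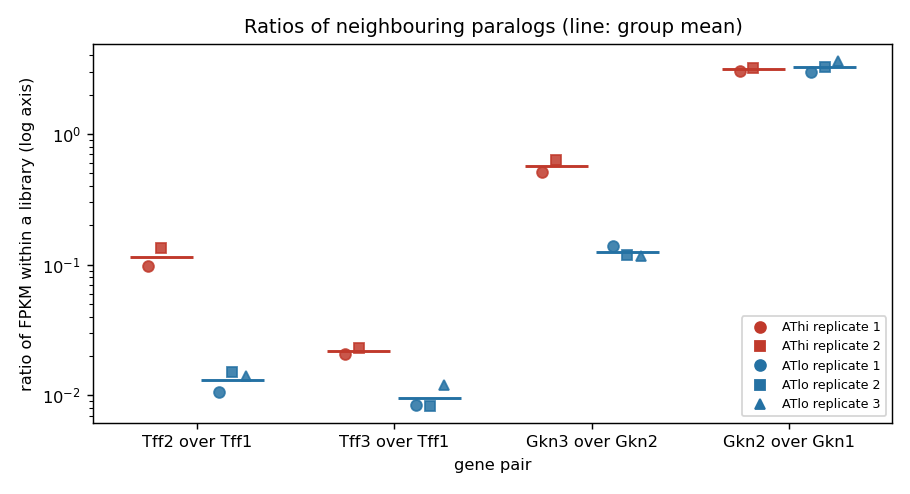
Ratio of FPKM within a library (log axis) for 4 pairs of neighbouring paralogs, with points for libraries and lines for group means. Tff2 over Tff1 and Gkn3 over Gkn2 are higher in both AThi libraries than in any ATlo library, and Gkn2 over Gkn1 is 3.00 to 3.60 throughout.

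Muc1 encodes a membrane-bound mucin that is shed from epithelial surfaces and signals through its short cytoplasmic tail. It lies on chromosome 3 (89229057 to 89233381, plus strand) and was at 683 and 628 FPKM in AThi and 635, 508 and 519 FPKM in ATlo, among the 43 highest rows of every library. ATlo replicate 1 lay between the AThi libraries. The log2 fold change was 0.25, with a 95% interval of -0.03 to 0.53 and a limma adjusted p of 0.119. Without ATlo replicate 1 it was 0.35, and the gene passed with an adjusted p of 0.0230 by limma. The neighbouring gene Mtx1, which encodes a mitochondrial outer membrane protein, was at 9.43 and 9.55 FPKM in AThi and 18.04, 17.3 and 16.3 FPKM in ATlo, and fell with a limma adjusted p of 0.00016. Thbs3 did not pass. Its annotated end lay 2.22 kb from Muc1, on the same side as that of Mtx1 at 1.97 kb. Trim46, on the other side of Muc1, did not pass. Krtcap2, beyond Trim46, had a log2 fold change of -0.20 and a limma adjusted p of 0.0292. Krtcap2 lost its call in 7 of 13 alternative fits.

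Muc5ac, the gel-forming mucin of gastric pit cells, had the widest spread. It lies on chromosome 7 (141788972 to 141819231, plus strand) and was at 24.4 and 45.6 FPKM in AThi and 42.2, 63.5 and 91.0 FPKM in ATlo. AThi replicate 2 was above ATlo replicate 1. The log2 fold change was -0.89 ± 0.35 (SE), with a 95% interval of -1.73 to -0.06 and a limma adjusted p of 0.0699. It passed without AThi replicate 2, at -1.34 and an adjusted p of 0.0433 by limma, and without ATlo replicate 1, at -1.18 and an adjusted p of 0.0258. It was at -0.45 without AThi replicate 1.

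The other genes of the chromosome 7 mucin cluster were low. Muc6, the gel-forming mucin of gastric glands (141633456 to 141655319, minus strand), was at 0.10 and 0.07 FPKM in AThi and 0.04, 0.04 and 0.03 FPKM in ATlo. By the annotated exon length these values stand for 26 and 30 reads in AThi and 16, 13 and 11 reads in ATlo, so the gene was detected in every library and at very few reads. Muc2, the intestinal goblet cell mucin, was at 0.02 to 0.08 FPKM, and Muc5b at 1.14 and 1.87 FPKM in AThi and 0.99 to 1.21 FPKM in ATlo, with a limma adjusted p of 0.183. Without AThi replicate 1, Muc5b passed, with a log2 fold change of 0.58 and an adjusted p of 0.0398 by limma. Of the gel-forming mucins measured, Muc5ac was the one above 2 FPKM. Of 9 further membrane-bound mucin genes found, 2 passed the filter and 1 of them rose, against 22.2% called higher over all genes. With no filter, where more rows were tested, 3 were called, beside 5518 of 24118 over all genes. With TPM 2 were called, beside 6324 of 13570. Under the filter, Muc3a was at 0.73 and 1.21 FPKM in AThi and 0.04 to 0.08 FPKM in ATlo. The gene that rose was Muc4, at 8.95 and 8.17 FPKM in AThi and 2.80 to 4.07 FPKM in ATlo, with a log2 fold change of 1.24 ± 0.14 (SE) and a limma adjusted p of 0.000526.

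Agr2 encodes a disulfide isomerase of the endoplasmic reticulum on which intestinal mucin depends for its folding. It lies on chromosome 12 (35992907 to 36004087, plus strand) and was near the floor, at 0.20 and 0.14 FPKM in AThi and 0.48, 0.50 and 0.24 FPKM in ATlo, where 3 reads correspond to 0.0516 to 0.0846 FPKM. These levels stand for 7 and 8 reads in AThi and 26, 23 and 12 reads in ATlo. Its relative Agr3 was listed at 0 in all 5 libraries. Of 10 other disulfide isomerases and oxidases tested, 3 rose and 3 fell while 4 missed the threshold, at a median log2 change of -0.08. The 60% that passed compare with 51.6% of all genes tested. Without ATlo replicate 2 a total of 3 passed in place of 6, beside 4689 of 11397 genes in place of 5884. The oxidase gene Ero1l rose by 1.64 ± 0.12 (SE), Qsox1 rose by 0.62 ± 0.10 (SE), and Pdia5 had a log2 fold change of -0.75 ± 0.10 (SE). P4hb, the main protein disulfide isomerase gene, was at 763 and 855 FPKM in AThi and 619 to 652 FPKM in ATlo.

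Anxa10 had the most regular difference of the set. It encodes an annexin, a calcium-dependent membrane-binding protein, found in the stomach and in gastric-type lesions of the pancreas. It was at 110 and 106 FPKM in AThi and 245, 233 and 219 FPKM in ATlo, so the groups stood far apart and the spread within each was small. The means were 108 ± 2.64 FPKM (SD, n = 2) and 233 ± 12.9 FPKM (SD, n = 3), or 2.15-fold lower in AThi, with a log2 fold change of -1.10 ± 0.07 (SE) and a limma adjusted p of 8.63e-05. With each library left out in turn it stayed between -1.14 and -1.06 and kept its call. Of 11 other annexin genes tested, 1 rose and 6 fell while 4 missed the threshold, at a median log2 change of -0.29, against -0.03 over all genes tested. The 63.6% that passed compare with 51.6% of all genes. Anxa9, Anxa1 and Anxa2 had log2 fold changes of -0.74, -0.66 and -0.65, all smaller in size than that of Anxa10.

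RefSeq promoter windows (GRCm38.p6) were matched for Muc1, Muc6, Anxa10, Agr2 and Gkn1, and the 250 bases before the start were searched on both strands for AGATAA, bound by GATA factors, for TNTTTAC, bound by FOXA factors, for GTTAAT, a partial HNF1 site, for TGANTCA, bound by AP-1, and for TATAAA, the start-site box. The Anxa10 window is shown because this gene had the smallest adjusted p of the set. Capitals mark the matches in it, which are 2 for AP-1, 1 for FOXA and 1 start-site box, none of them overlapping.
Anxa10 (GRCm38.p6, chr8:62123194-62123443, minus strand): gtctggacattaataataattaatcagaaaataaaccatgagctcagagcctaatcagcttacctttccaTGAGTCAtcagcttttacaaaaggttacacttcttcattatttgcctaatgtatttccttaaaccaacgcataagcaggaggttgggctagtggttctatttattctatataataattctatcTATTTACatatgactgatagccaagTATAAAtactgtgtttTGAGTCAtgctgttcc
Over 32851 windows of this length, 6.75% held at least 1 AP-1 motif, 10.9% the FOXA motif and 12.4% the start-site box. The share with 2 AP-1 matches, as in the Anxa10 window, was not computed. Gkn1 had 1 match for AP-1 and 1 for GATA factors, Muc6 had 1 for GATA factors, Muc1 had 1 start-site box and Agr2 had 0 matches. Of the same windows, 9.99% held the GATA motif.

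Ctse encodes cathepsin E, an aspartic protease of endosomes that the stomach makes in quantity. It lies on chromosome 1 (131638306 to 131675505, plus strand) and was at 393 and 373 FPKM in AThi and 454, 455 and 409 FPKM in ATlo. Both AThi values were below all ATlo values, by a small margin. The log2 fold change was -0.20, with a 95% interval of -0.40 to 0.01 and a limma adjusted p of 0.0927. Among other aspartic protease genes, Pgc, the gene of the gastric zymogen pepsinogen C, was at 12.8 and 10.8 FPKM in AThi and 3.74, 3.11 and 2.69 FPKM in ATlo, a log2 fold change of 1.75 ± 0.13 (SE) with a limma adjusted p of 0.000136. Bace2 rose by 0.58 ± 0.09 (SE). Ctsd, the lysosomal cathepsin D gene, was at 128 and 130 FPKM in AThi and 107 to 135 FPKM in ATlo, and missed the threshold.

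Gastric genes beside the set changed in both directions. Of 9 tested genes in a list of gastrokines and gastric secreted or surface proteins, 2 rose and 6 fell while 1 missed the threshold, at a median log2 change of -0.48 against -0.03 over all genes tested, of which 51.6% passed. The rises were Gkn3 and Pgc. The falls were in Aqp5, a water channel, by 1.26 on the log2 scale, in the stomach-type adhesion gene Vsig1 by 0.94, in the mucin-like gene Dpcr1 by 0.88, and in Psca, Cldn18, a claudin gene with a stomach form, and Tspan8. Vsig1 was at 101.6 and 100.9 FPKM in AThi and 190 to 201 FPKM in ATlo.

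**Figure D5:**
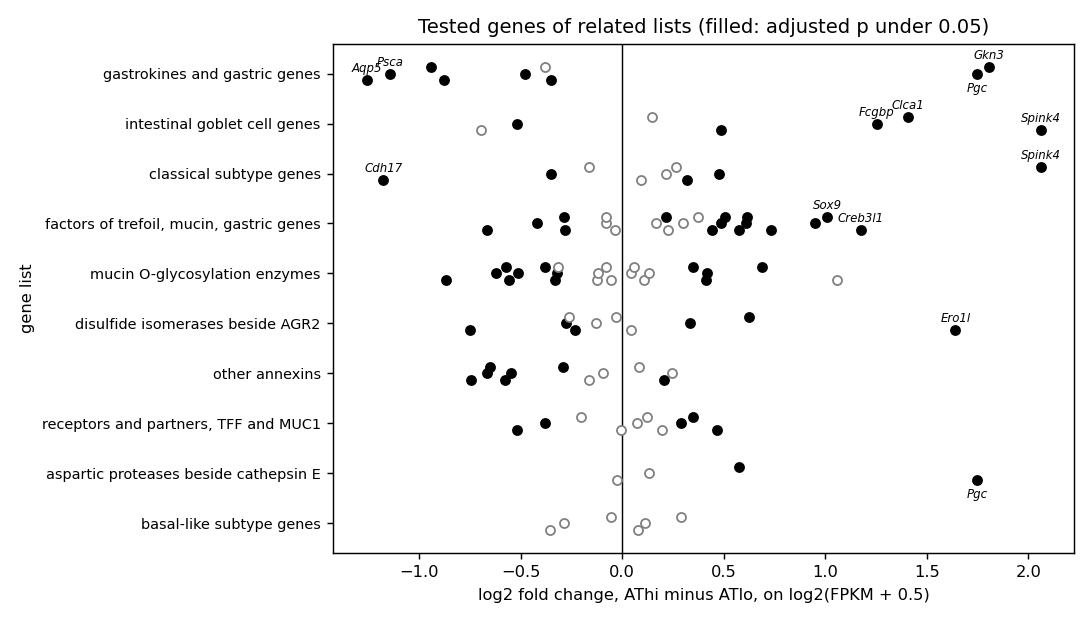
Log2 fold change, AThi minus ATlo, of the tested genes of 10 related lists; filled points passed an adjusted p of 0.05 and names mark those that passed with a size of at least 1. Gastric genes lie on both sides of 0, with Gkn3 and Pgc at the right and Aqp5 and Psca at the left.

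Of 9 tested genes of the classical subtype that are not in the set, 3 rose, 2 fell and 4 did not pass, so that 55.6% passed, near the 51.6% of all genes. Spink4, a protease inhibitor gene of goblet cells, rose by 2.06 ± 0.23 (SE), Prr15l rose by 0.48, and Cdh17, an intestinal cadherin gene, had a log2 fold change of -1.18 ± 0.16 (SE). Of 7 tested goblet cell genes, 4 rose (Spink4, Clca1, Fcgbp and Vil1), 1 fell (Cdx2) and 2 missed the threshold, at a median log2 change of 0.49. That is 71.4% passed, against 51.6% of all genes, and Vil1 lost its call without AThi replicate 1, without AThi replicate 2 and without ATlo replicate 2. Clca1 and Fcgbp, whose products are found in intestinal mucus, rose by 1.41 ± 0.17 and 1.25 ± 0.24 (SE). Of 6 tested basal-like genes, 0 passed in limma, and 1 (Slc2a1) had an unadjusted p under 0.05. In other settings the count was up to 3. Of these genes, Slc2a1 was at 57.6 to 82.8 FPKM over the 5 libraries, Areg at 27.9 to 52.8 FPKM, the basal keratin gene Krt14 at 13.9 to 26.0 FPKM and Scel at 7.74 to 10.4 FPKM. Krt5, Krt6a, Krt17 and Trp63, under the filter, were at 0.04 FPKM or less in every library.

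Enzymes that build mucin sugar chains passed the test about as often as other genes. Of 22 tested, 4 rose and 8 fell while 10 missed the threshold, at a median log2 change of -0.10. The share that passed was 54.5%, against 51.6% of all genes. St3gal4, a sialyltransferase gene, rose by 0.69 ± 0.06 (SE), while Gcnt4 and Galnt3, genes of a branching enzyme and of an enzyme that starts the chains, had log2 fold changes of -0.87 ± 0.09 and -0.62 ± 0.06 (SE). B3gnt3 and Gcnt3 were the most abundant, at means above 100 FPKM in both groups, and did not pass.

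Of 22 tested transcription factor genes known to act on trefoil, mucin or gastric genes, 11 rose, 4 fell and 7 did not pass. The 68.2% that passed compare with 51.6% of all genes, and without AThi replicate 2 a total of 9 passed in place of 15. Creb3l1, a membrane-bound factor of secretory cells, rose by 1.17 ± 0.09 (SE), Sox9 by 1.01 ± 0.12 (SE) and the epithelial ETS factor gene Elf3 by 0.95 ± 0.17 (SE). Gata6 was at 39.6 and 41.2 FPKM in AThi and 33.6 to 36.6 FPKM in ATlo, and Foxa1 at 8.37 and 7.62 FPKM against 12.8 to 13.1 FPKM. Sox2, the foregut factor, was at 0 to 0.12 FPKM. Among receptors and partners, Erbb2, a binding partner of MUC1, rose by 0.46 ± 0.08 (SE) and Lgals3, the gene of the MUC1-binding lectin galectin-3, had a log2 fold change of -0.52 ± 0.10 (SE). F2rl1, a protease-activated receptor gene, had -0.38 ± 0.07 (SE). Cxcr4, a proposed receptor of Tff2, was at 0.16 and 0.18 FPKM in AThi and 0 to 0.03 FPKM in ATlo.

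Other features of the libraries moved with the same groups. The summed level of 17 immediate-early and heat-shock genes, which respond to cell handling, was 4121 and 6495 FPKM in AThi and 1561 to 2343 FPKM in ATlo. Of these genes 14 rose, or 82.4%, against 22.2% called higher over all genes tested. The heat-shock genes Hspa1a and Hspa1b, and also Klf6, did not pass, at log2 fold changes of -1.31, -0.36 and 0.23. AThi replicate 2 was the higher of its group in the sum of these 17 genes and also in Tff1, Tff2, Tff3, Muc5ac and the 3 gastrokines. It was the lower in Muc1, Anxa10 and Ctse. In ATlo, replicate 2 had the highest sum and the highest Tff2 and gastrokines. ATlo replicate 3 had the lowest sum and yet the highest Tff1, Tff3 and Muc5ac. These orders within a group were not tested. All 13 cell division genes of a marker list fell, against 29.4% called lower over all genes tested. Their sums were 57.4 and 60.2 FPKM in AThi and 387 to 524 FPKM in ATlo. The part of these in the changes of Tff1, Tff2 and Anxa10 was not tested.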

How the data were processed

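Messenger RNA was measured in 5 libraries of sorted cells; per the labels' protocols, the kit keeps the strand. The authors deposited 1 table of FPKM with 2 decimals. Named in the submitters' processing notes are the builds GRCm38 and mm10 and the tools STAR, featureCounts, bcl2fastq and DESeq2. Their versions and roles, the annotation release, strand setting and FPKM formula were not given in the sources used. Reads of near-identical genes may be lost or shared in such counting.

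The two-sided test used limma 3.58.1 (R 4.3.3; linear fit on group, empirical Bayes moderation with a trend) on log2(FPKM + 0.5) where the mean reached 1 FPKM. Residual degrees of freedom were 3, and prior ones 3.89. This scale understates changes of low genes. On simulated data for the 11397 genes, 1.5-fold, 2-fold and 4-fold changes were planted in 80, 55 and 65 genes. Of these, 62.5%, 80.0% and 98.5% were recovered, and 8 unchanged genes passed. The planted share is far below the 51.6% called in the data. The adjustment depends on that share, so these rates need not hold for this comparison.

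Depth came from single-exon genes of up to 200 nucleotides, whose length-scaled FPKM were whole multiples of a library's step (tolerance 0.1, 220 to 280 values per library, 100% whole). Read numbers and floors of 3 reads use GENCODE M21 exon lengths and cover counting error only. Coordinates are 1-based, from GENCODE M21 (GRCm38).

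The genes and lists were chosen with earlier results of these data known. All 10 genes are described, and from each related list the 3 tested genes with the largest change past the threshold, or else the most abundant, were to be named; relatives of the 10 and others given as examples were added, the latter after their values were seen. Alternatives covered the pseudocount, the filter, scaling, robust moderation, a replicate block and each library left out; for the related lists they were added after the data were seen.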

Additional observations from a re-analysis of the deposited data

How the results depend on the processing

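Tff2 and Anxa10 kept direction and call in all 13 alternative fits, and Tff1 in 12, with the exception of the fit with no filter on low values (adjusted p 0.169 by limma; the cause was not tested). Of the 8 genes tested, 3 were called, beside 5884 of 11397 over all genes. With no filter, 2 of the 10 were called, beside 5518 of 24118. Without ATlo replicate 1, 2 or 3, the calls were 5, 3 and 3 of the 8. Over all 11397 genes they were 5718, 4689 and 5145 in these fits. Tff3 had log2 fold changes of -0.58 to 0.0019 when libraries were left out, the value above 0 coming without AThi replicate 1, and Cd164 had -0.0903 to 0.2245, with values below 0 without AThi replicate 1 and without ATlo replicate 2 (-0.04). The 5 calls came without ATlo replicate 1. Over all genes, 2529 were higher in AThi, 1683 with a minimum mean of 5 FPKM, where fewer genes were tested, and 1715 to 2467 with a library left out. Of 34 related genes that were called and tried in the alternatives (added after the data were seen), 31 kept call and direction wherever they were tested, and Tspan8 (with no filter), Vil1 and Krtcap2 lost the call in at least 1. Where a group is left with 1 library, that library is assumed to vary like the other group.

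Replicate numbers 1 and 2 occur in both groups, and the titles of same-numbered libraries share a code that no label explains, so a shared date or culture cannot be told from the labels. Deviations from the group means correlated between same-numbered libraries with r of 0.20 and 0.297 over genes, which are not independent replicates. With 2 AThi libraries, their deviations mirror each other. The r was therefore -0.297 for AThi 1 with ATlo 2 and -0.20 for AThi 2 with ATlo 1, which adds no separate evidence of pairing. With ATlo 3 it was 0.06 for AThi 1 and -0.06 for AThi 2. The replicate block leaves 1 residual degree of freedom. ATlo replicate 3 has no same-numbered AThi library, so its values do not enter the group difference of that fit. The log2 fold changes therefore equal those without ATlo replicate 3. With the block, 6 of the 8 genes tested were called in place of 3, a larger part than the 5909 of 11397 over all genes. The additions were Muc5ac at -0.63, Gkn1 at -0.42 and Ctse at -0.25, with adjusted p of 0.00054, 0.00196 and 0.0269 by limma. Gkn2, at -0.42 and 0.0020, was called as well, and 5909 genes were called in place of 5884. Depth limits the reading of Agr2 and Muc6, at 7 to 30 reads in a library.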
